A study of Mus musculus with 8 samples.

Results

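Hair germ cells were set against interfollicular epidermis (IFE) cells within the same newborn control mice, across every gene with enough reads to test. The members are 4 of the 8 RNA-seq libraries of the study: the hair germ and the IFE library of control pup 3 and of control pup 5, taken by their sample titles and paired by pup. The other 4 libraries are the same populations of transgenic pups 4 and 6. All pups were of mixed strain, their skin was taken at postnatal day 0.5, and their dams ate doxycycline chow through pregnancy. Control pup 3 carried K14rtTA alone, a doxycycline-dependent transactivator driven by the keratin 14 promoter. Control pup 5 carried pTRE2-200bcl alone, a tetracycline-responsive construct for microRNAs of the miR-200 family, so the 2 controls differed in genotype. Transgenic pups 4 and 6 carried both. From each pup, cells positive for the keratin 14 reporter K14RFP and high for alpha6 integrin were sorted; high P-cadherin defined hair germ and low P-cadherin defined IFE.

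Hair follicles begin as placodes in the embryonic epidermis, where Wnt and ectodysplasin signals select cells that then grow down into the dermis as hair germs. The germ secretes Sonic hedgehog, and the hedgehog response, read through Gli transcription factors and their target Ptch1, drives proliferation of the bud. The epidermis between follicles keeps a basal layer on the basement membrane and sends cells upward, which switch on keratins 1 and 10, desmosomal cadherins and barrier genes. P-cadherin is enriched in placodes and germs, which is the basis of the sort.

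Values below are CPM, counts relative to library size scaled by edgeR's trimmed mean of M values (TMM), given in pup order, 3 then 5 for controls and 4 then 6 for transgenic pups. A log2 fold change is hair germ minus IFE, fitted by edgeR with its standard error (SE). A gene passed where its Benjamini-Hochberg adjusted p over all 14176 genes tested was under 0.05. The control libraries held 10327474 and 14039583 gene counts in hair germ, and 7393908 and 12253892 in IFE. One library stood apart: Rn45s, the ribosomal RNA precursor row, took 30.6% of gene counts in IFE of pup 3, against 5.66% and 3.56% in hair germ and 3.75% in IFE of pup 5. Across genes, log2 CPM of the 2 hair germ libraries correlated at 0.901 and the 2 IFE libraries at 0.949, while hair germ and IFE correlated at 0.910 in pup 3 and 0.951 in pup 5; genes are not independent replicates. With 2 animals a population, p-values rest on the spread between the 2 libraries within each group. The control and transgenic groups share 1 estimate of that spread.

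A row named miR200primary checks the construct, and it had 0.176 and 1.40 CPM in control hair germ and 3.83 and 2.63 CPM in control IFE (log2 fold change -1.84 ± 0.63, adjusted p = 0.501). In transgenic pups it had 526 and 797 CPM in hair germ and 607 and 714 CPM in IFE, so all 4 controls were far below all 4 transgenic libraries.

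The genes of the sort were measured next. Cdh3, which encodes the P-cadherin used to separate the populations, had 353 and 436 CPM in hair germ and 293 and 386 CPM in IFE. It was the higher in hair germ within each pup, yet the ranges overlapped between pups and the difference did not pass (log2 fold change 0.22 ± 0.23, adjusted p = 0.804). Itga6, the alpha6 integrin, had 774 and 903 CPM in hair germ and 1039 and 1394 CPM in IFE (-0.54 ± 0.22, adjusted p = 0.573). Krt14, the basal keratin behind the reporter, had 8137 and 7588 CPM in hair germ and 9082 and 11675 CPM in IFE, without a passing difference (-0.40 ± 0.29, adjusted p = 0.704). The transcript of the separating protein thus did not tell the populations apart in these libraries, and genes of the placode and germ, described below, served as the other check of the label.

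At the threshold, 1 of 14176 genes was higher in hair germ (0.00705%) and 0 were lower. At an unadjusted p under 0.05 there were 1200 genes (8.47%), 402 higher in hair germ (2.84%) and 798 lower (5.63%). Without overlap between the populations, 2013 genes were higher in hair germ (14.2%) and 2722 were lower (19.2%). The median log2 fold change of all genes was -0.04, and 6532 genes were above 0. By DESeq2's Wald test, 39 genes were higher and 110 lower, and by limma-voom 0 passed. With libraries scaled by size alone the median of all genes moved to 0.26, and 23 genes were higher and 6 lower. Single libraries weighed on the count, which was 123 without hair germ of pup 5 and 0 without IFE of pup 3. Of the 123, 31 were higher in hair germ, among them Fn1, Adamts17, Nrp2, Gli1, Tgfb3 and Mycn, and 92 were lower, among them Arhgap31, Sfpi1, Itgb2 and Lyz2.

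The gene that rose in hair germ was Gm6537, a predicted gene for which no annotation was at hand. It had 43.0 and 44.5 CPM in hair germ, against 1.04 and 0.34 CPM in IFE (log2 fold change 6.21 ± 0.71, adjusted p = 0.00886). Transgenic pups, which share no library with the controls, gave 342 and 119 CPM in hair germ and 1.48 and 3.85 CPM in IFE (6.32, adjusted p = 0.000131). All 4 hair germ libraries were thus at least at 43.0 CPM and all 4 IFE libraries at or below 3.85 CPM. The call in controls was lost without IFE of pup 3 (adjusted p = 0.321), without IFE of pup 5 (adjusted p = 0.255) and with the Rn45s row left out (adjusted p = 0.0559), while the fold change kept its sign.

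Adamts17 and Fn1 were next by p. Adamts17, a secreted metalloprotease at chr7:66839699-67153171 (GRCm38), had 88.2 and 92.3 CPM in hair germ and 20.2 and 20.8 CPM in IFE (2.14 ± 0.28, adjusted p = 0.0506). With the pup as a block it passed (adjusted p = 0.00831). Fn1, the matrix glycoprotein fibronectin (chr1:71585473-71653280), had 1112 and 754 CPM in hair germ and 199 and 240 CPM in IFE (2.08 ± 0.30, adjusted p = 0.0693, and 0.00831 with the block). Both genes rose in hair germ of transgenic pups (1.40 and 1.76 on the log2 scale, adjusted p = 0.0108 and 0.00543).

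Cgnl1, the junction protein paracingulin (chr9:71626507-71809300), had 58.7 and 68.3 CPM in hair germ and 13.6 and 19.4 CPM in IFE (1.92 ± 0.29, adjusted p = 0.0799). Col27a1, a fibrillar collagen (chr4:63214009-63334991), had 83.7 and 77.4 CPM in hair germ and 18.8 and 25.5 CPM in IFE (1.85 ± 0.31, adjusted p = 0.119). Both were taken from genes without overlap, and for both the lower hair germ library was well above the higher IFE library. They also rose in transgenic hair germ (2.01 and 2.49, adjusted p = 0.00294 and 0.00153).

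With the block, 5 genes were higher in hair germ and 2 were lower. Besides Gm6537, Adamts17 and Fn1, the higher ones were Has3 and Tspan18. Has3, a hyaluronan synthase, had 229 and 304 CPM in hair germ and 65.0 and 115 CPM in IFE (1.56 ± 0.30, adjusted p = 0.257, and 0.0289 with the block). Tspan18, a tetraspanin, had 41.6 and 83.5 CPM in hair germ and 10.1 and 19 CPM in IFE (2.06 ± 0.52, adjusted p = 0.395, and 0.0444 with the block). The 2 lower were Thbs1 and Mir5109. Thbs1, the matrix protein thrombospondin-1, had 1059 and 3376 CPM in hair germ and 2399 and 6832 CPM in IFE, lower in hair germ of each pup but overlapping between pups (-1.06 ± 0.51, adjusted p = 0.597, and 0.0444 with the block). Mir5109 had 7.20 and 0 CPM in hair germ and 266 and 0.424 CPM in IFE, so its difference came from the pup 3 libraries, and it turned to 2.94 without IFE of pup 3.

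**Figure D1:**
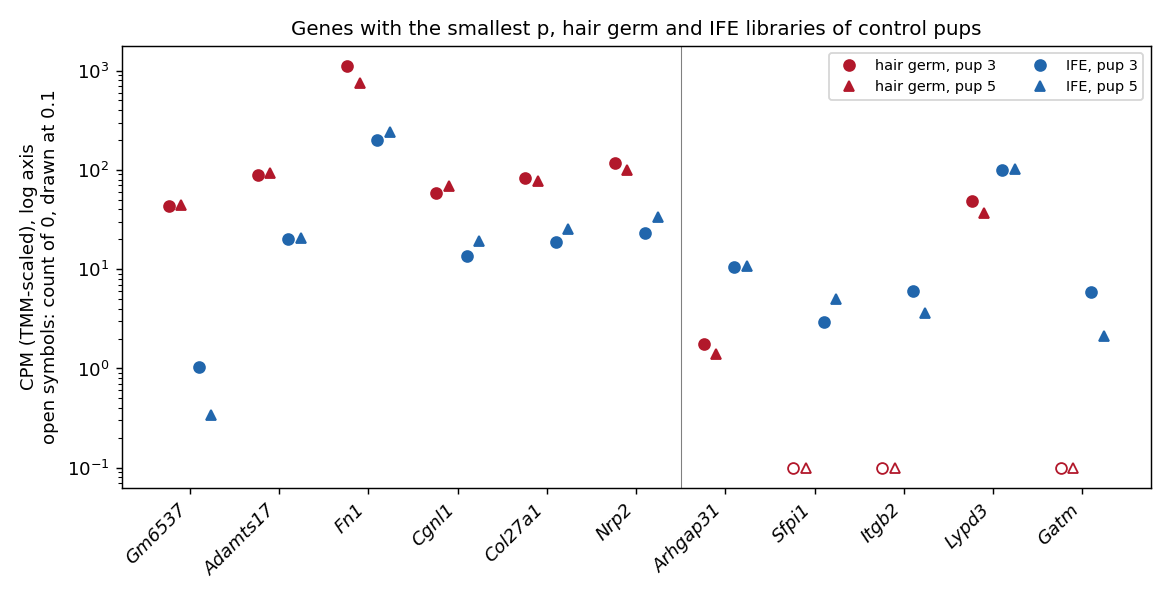
CPM (log axis) of Gm6537 and of 5 genes a direction with the smallest p among those that could be named, one symbol per control library. Open symbols are a count of 0 drawn at the foot of the axis. The 5 genes a direction were taken from genes without overlap. That both hair germ libraries lie on one side of both IFE libraries follows from that choice. Fn1, for example, is at 1112 and 754 CPM in hair germ and 199 and 240 CPM in IFE.

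Of 32 genes listed for the hair placode and germ, 31 were tested and 24 were above 0 in hair germ. At an unadjusted p under 0.05, 11 were higher and 1 lower, against 2.84% and 5.63% of all genes, and none passed. Without overlap, 15 were higher and 2 lower (14.2% and 19.2% of all genes), and the list's median log2 fold change was 0.62, against -0.04 over all genes tested. Over the other settings, among them each library left out, this median ran between 0.46 and 0.90.

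The promoters of Edar and Nrp2 are shown. Of 17 placode genes searched, these 2 had a promoter with the letters CTTTGAT, a core of the Tcf/Lef site through which Wnt signals act. Each window runs from 250 bases before to 50 after a RefSeq start in GRCm38.p6, on the strand of the gene, with the match in capitals. Edar lies on the minus strand at chr10:58675647-58675946 and Nrp2 on the plus strand at chr1:62703067-62703366.
Edar: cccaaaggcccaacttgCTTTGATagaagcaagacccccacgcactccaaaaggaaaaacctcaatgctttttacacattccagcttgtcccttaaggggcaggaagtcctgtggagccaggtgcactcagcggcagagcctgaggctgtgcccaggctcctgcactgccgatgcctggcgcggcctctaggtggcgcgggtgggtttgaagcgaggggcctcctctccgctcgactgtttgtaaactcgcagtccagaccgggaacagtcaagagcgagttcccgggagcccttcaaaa
Nrp2: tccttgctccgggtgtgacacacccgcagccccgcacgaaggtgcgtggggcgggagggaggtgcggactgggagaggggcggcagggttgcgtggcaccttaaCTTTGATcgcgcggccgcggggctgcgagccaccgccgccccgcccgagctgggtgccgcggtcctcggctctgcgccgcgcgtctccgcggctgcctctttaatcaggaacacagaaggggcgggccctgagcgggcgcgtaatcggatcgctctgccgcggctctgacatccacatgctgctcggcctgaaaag
The match is at bases 18 to 24 for Edar and 105 to 111 for Nrp2. On either strand these letters (ATCAAAG on the other) were in 1225 of 32851 promoters of the same length (3.73%), and in 2 of 25 promoters of 17 placode genes. They were also in 1 of 18 promoters of 16 hedgehog genes, that of Disp1. The Gli letters GACCACCC or GGGTGGTC were in 265 of all promoters (0.807%) and in none of the 25, nor of the 18. Other genes of both lists, Gli1 and Shh among them, were not in these sets, so nothing is said of their promoters. A match describes letters in a window and no binding.

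The receptors came first by p. Nrp2, a co-receptor for semaphorins and vascular endothelial growth factors, had 116 and 98.6 CPM in hair germ and 23.3 and 33.8 CPM in IFE (1.89 ± 0.34, adjusted p = 0.213). Edar, the ectodysplasin receptor that placodes need, had 90.2 and 127 CPM in hair germ and 25.3 and 39.5 CPM in IFE (1.73 ± 0.35, adjusted p = 0.288). In transgenic pups Edar rose in hair germ (1.40, adjusted p = 0.043), and Nrp2 was at 1.09 with an adjusted p of 0.0897.

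Among the transcription factors, Lhx2, which marks the germ and later follicle stem cells, had 37.3 and 26.8 CPM in hair germ and 11.5 and 5.09 CPM in IFE (2.04 ± 0.42, adjusted p = 0.288). It rose in transgenic hair germ by 2.54 (adjusted p = 0.00358). Foxi3, a factor of early ectodermal appendages, had 44.8 and 30.1 CPM in hair germ and 6.09 and 12.8 CPM in IFE (1.91 ± 0.43, adjusted p = 0.347). In transgenic pups Foxi3 was 19 and 22.3 CPM in hair germ and 14.2 and 12.1 CPM in IFE, and did not pass (0.66, adjusted p = 0.459). Sox9, a factor of follicle stem cells, was 224 and 232 CPM in hair germ and 108 and 187 CPM in IFE (0.62 ± 0.25, adjusted p = 0.571).

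Secreted members followed. Sostdc1, an antagonist of Bmp and Wnt signals around the placode, had 317 and 148 CPM in hair germ and 147 and 71.9 CPM in IFE (1.09 ± 0.37, adjusted p = 0.501). Its hair germ value was the higher within each pup, and pup 3 was above pup 5 in both populations. Fgf20, a placode signal to the dermis, had 96 counts in hair germ and 1 in IFE, a ratio of 63.6 with a 95% counting interval of 11.2 to 2540. That interval covers counting error only, and in transgenic pups Fgf20 was 1.41 and 3.03 CPM in hair germ and 1.48 and 3.17 CPM in IFE. Ctgf, a matricellular protein, had 89.6 and 87.0 CPM in hair germ and 42.8 and 50 CPM in IFE (0.92 ± 0.27, adjusted p = 0.461), and rose in transgenic hair germ (1.92, adjusted p = 0.00294).

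Igfbp3, an insulin-like growth factor binding protein, was the listed gene on the other side at p under 0.05, with 50.2 and 35.0 CPM in hair germ and 104 and 72.7 CPM in IFE (-1.05 ± 0.27, adjusted p = 0.395). In transgenic pups it rose in hair germ, with 91.4 and 92.2 CPM there and 41.1 and 37.7 CPM in IFE (1.22, adjusted p = 0.0255). The test of that difference gave -2.27 with an adjusted p of 0.052. Over the whole list, 5 genes rose in transgenic hair germ (Edar, Lhx2, Ctgf, Igfbp3 and Shh) and 0 fell, against 0.875% and 3.75% of all genes.

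**Figure D2:**
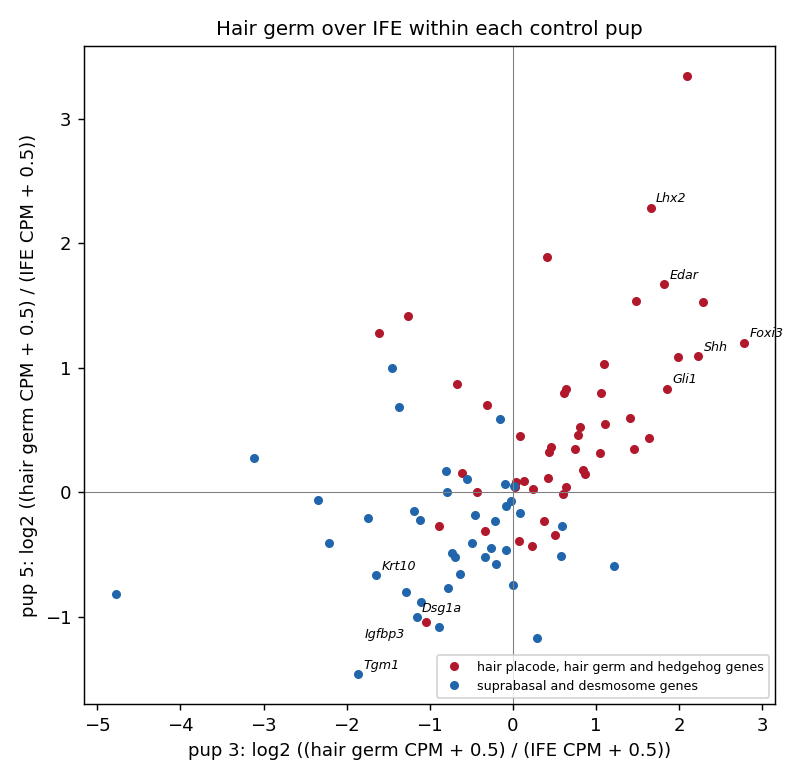
Log2 ratio of hair germ to IFE (CPM + 0.5) in pup 5 (vertical) against pup 3 (horizontal), one point per gene of the listed placode, germ and hedgehog genes (red) or suprabasal and desmosome genes (blue). In both pups, 33 of 47 red genes lie above 0 and 26 of 40 blue genes lie below 0.

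Of 20 listed hedgehog genes, 17 were tested and 16 were above 0 in hair germ, although none passed. At p under 0.05, 7 were higher (2.84% of all genes) and 0 lower. Ihh, Dhh and Hhip had no count in any control library. The median was 0.39, between 0.38 and 0.72 under the other settings, and 10 genes were higher without overlap, against 14.2% of all genes. In transgenic pups, 7 of the 17 rose in hair germ and 0 fell, against 0.875% and 3.75% of all genes. All 17 had the sign they had in controls.

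The ligand Shh had 31.3 and 14.9 CPM in hair germ and 6.27 and 6.71 CPM in IFE (1.81 ± 0.63, adjusted p = 0.513). In transgenic pups it had 42.9 and 143 CPM in hair germ and 5.80 and 14.1 CPM in IFE, and rose by 3.16 (adjusted p = 0.0106). Shh was above every IFE library of the study in all 4 hair germ libraries. Disp1, which releases the ligand from the cell, had 121 and 149 CPM in control hair germ and 78.5 and 85.4 CPM in control IFE (0.72 ± 0.24, adjusted p = 0.501).

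The receptor Ptch1 is also a target of the pathway. It had 1044 and 904 CPM in hair germ and 484 and 619 CPM in IFE (0.82 ± 0.20, adjusted p = 0.395). It rose in transgenic hair germ (1.0, adjusted p = 0.0152), and in controls both hair germ libraries were above both IFE libraries. Smo, the transducer that Ptch1 holds in check, had 247 and 213 CPM in hair germ and 242 and 202 CPM in IFE, and these overlapped (0.06 ± 0.21, adjusted p = 0.964). In transgenic pups Smo rose (0.86, adjusted p = 0.0429), and the test of the difference gave an adjusted p of 0.494.

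Gli1, a transcription factor that is itself a hedgehog target, had 333 and 228 CPM in hair germ and 91.4 and 128 CPM in IFE (1.35 ± 0.25, adjusted p = 0.213). Gli2, the main activator, had 330 and 363 CPM in hair germ and 188 and 251 CPM in IFE (0.65 ± 0.21, adjusted p = 0.501). The fold changes in transgenic pups were 1.36 for Gli1 and 1.05 for Gli2, and both rose (adjusted p = 0.00904 and 0.0153). Kif7, a ciliary kinesin that regulates Gli proteins, had 34.0 and 22.7 CPM in hair germ and 10.6 and 16.6 CPM in IFE (1.02 ± 0.42, adjusted p = 0.573). Both Gli genes were higher in both hair germ libraries than in either IFE library. Gli1 passed under 4 of 20 other settings and Ptch1 under 1.

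**Figure D3:**
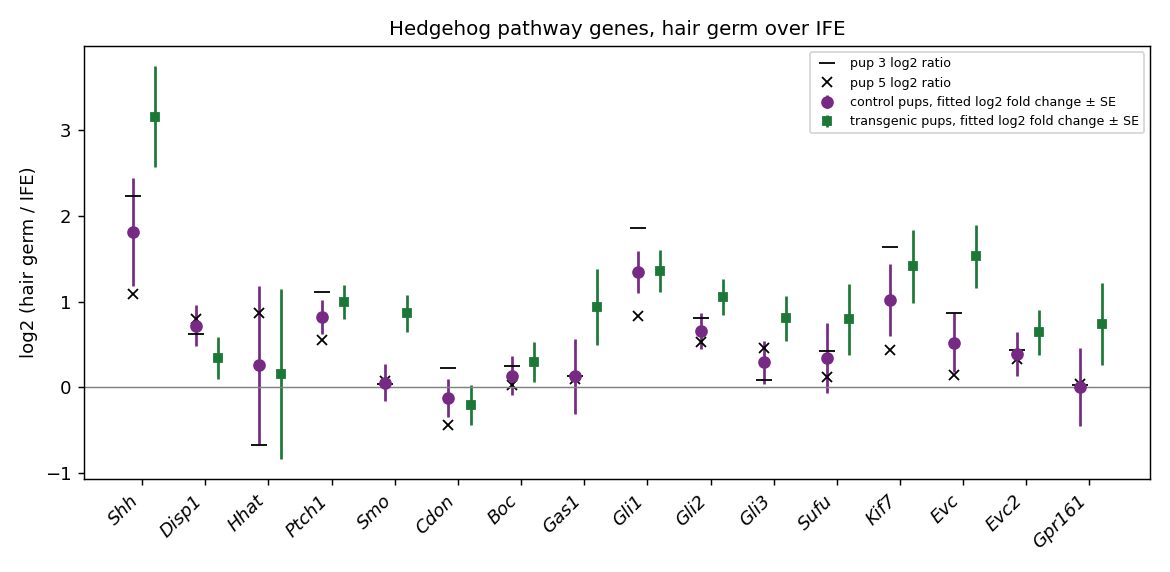
Log2 hair germ over IFE for tested hedgehog genes: fitted value ± SE in control pups (circles) and transgenic pups (squares), with the ratio in pup 3 (bars) and pup 5 (crosses). Of the genes drawn, Cdon alone was fitted below 0, and Gli1 had nearly the same fitted value in controls (1.35) and transgenic pups (1.36).

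Other signalling lists had medians nearer 0. Of 50 Wnt genes tested, 33 were above 0 with a median of 0.19. At p under 0.05, 3 were higher and 1 lower (2.84% and 5.63% of all genes). Nkd1, a feedback inhibitor and Wnt target, had 9.75 and 15.8 CPM in hair germ and 1.22 and 5.01 CPM in IFE (1.86 ± 0.73, adjusted p = 0.571). Dkk3, a secreted protein of the dickkopf family, had 34.3 and 42.4 CPM in hair germ and 16.4 and 24.4 CPM in IFE (0.89 ± 0.32, adjusted p = 0.535). Fzd6, a frizzled receptor of planar cell polarity, lay the other way, with 106 and 71.5 CPM in hair germ and 202 and 100 CPM in IFE (-0.76 ± 0.31, adjusted p = 0.573).

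Of 36 polarity genes tested, 8 were higher and 4 lower without overlap (14.2% and 19.2% of all genes), and 3 were higher and 3 lower at p under 0.05 (2.84% and 5.63%), with a median of 0.03. Prickle2 had 22.8 and 17.7 CPM in hair germ and 5.05 and 2.21 CPM in IFE (2.61 ± 0.67, adjusted p = 0.395). Vangl2 had 116 and 70.6 CPM in hair germ and 56.1 and 55.4 CPM in IFE (0.74 ± 0.28, adjusted p = 0.558). Both hair germ libraries were above both IFE libraries for each of them.

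In the Bmp, Tgf-beta and activin list, a ligand and its receptor lay on opposite sides of 0. Tgfb3 had 81.5 and 60.1 CPM in hair germ and 26.5 and 20.5 CPM in IFE (1.60 ± 0.31, adjusted p = 0.257). Tgfbr2, the type II receptor, had 133 and 146 CPM in hair germ and 230 and 253 CPM in IFE (-0.79 ± 0.19, adjusted p = 0.395). In transgenic hair germ Tgfb3 rose by 1.39 and Tgfbr2 fell by 1.02 on the log2 scale (adjusted p = 0.0239 and 0.0108). Inhbb, an activin subunit, had 12.6 and 14.6 CPM in hair germ and 5.75 and 0.594 CPM in IFE (2.42 ± 0.80, adjusted p = 0.501). The list as a whole had 25 of 42 genes above 0 and a median of 0.11.

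Of 39 Fgf, Egf and Igf genes, 4 were higher and 5 lower at p under 0.05 (2.84% and 5.63% of all genes). Their median was -0.19. Etv4, an Ets factor induced by Fgf signals, had 45.2 and 35.3 CPM in hair germ and 18.3 and 13.2 CPM in IFE (1.37 ± 0.34, adjusted p = 0.395). Igf2, an imprinted growth factor, had 357 and 194 CPM in hair germ and 792 and 740 CPM in IFE (-1.48 ± 0.38, adjusted p = 0.395). H19, the non-coding RNA of the same imprinted locus, had 3507 and 3905 CPM in hair germ and 4410 and 13115 CPM in IFE (-1.24 ± 0.45, adjusted p = 0.535). Both were lower in hair germ without overlap, although H19 of pup 3 was close in the 2 populations and IFE of pup 5 stood far above. Over the other settings H19 ran between -1.81 and -0.25, and Igf2 between -1.94 and -1.10. Igf2 fell in transgenic hair germ, by 1.63 on the log2 scale (adjusted p = 0.0387), and H19 was at -1.13 there without passing (adjusted p = 0.199). Of the 15 imprinted genes tested, 10 were above 0, so Igf2 and H19 were not typical of the list.

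Of 19 ectodysplasin and NF-kB genes, Edar was higher at p under 0.05 and 3 were lower (2.84% and 5.63% of all genes). Tnfaip3 and Nfkbia, feedback inhibitors induced by NF-kB, were among the lower. Tnfaip3 had 186 and 234 CPM in hair germ and 252 and 486 CPM in IFE (-0.82 ± 0.29, adjusted p = 0.528). Nfkbia had 204 and 253 CPM in hair germ and 253 and 512 CPM in IFE, where the higher hair germ value and the lower IFE value nearly met (-0.75 ± 0.29, adjusted p = 0.563). Of 20 Notch genes, 1 was higher and 2 lower at p under 0.05, near the shares of all genes (2.84% and 5.63%). The receptor Notch3 had 36.9 and 16.6 CPM in hair germ and 76.3 and 37.4 CPM in IFE. The ligand Jag1 had 154 and 170 CPM in hair germ and 208 and 243 CPM in IFE.

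Basement membrane genes had a median of 0.12 over 34 tested, with 4 higher and 2 lower at p under 0.05 (2.84% and 5.63% of all genes). Col4a1, a type IV collagen, had 566 and 873 CPM in hair germ and 232 and 528 CPM in IFE (0.92 ± 0.33, adjusted p = 0.528). Frem1, a Fraser complex protein at the junction with the dermis, had 26.6 and 10.3 CPM in hair germ and 6.09 and 3.90 CPM in IFE (1.93 ± 0.66, adjusted p = 0.502), and rose by 3.32 in transgenic hair germ (adjusted p = 0.00928). Of 31 matrix protease and collagen genes tested, 3 were higher and 4 lower at p under 0.05 (2.84% and 5.63% of all genes). Without overlap, 5 were higher and 7 lower (14.2% and 19.2% of all genes), and their median was 0.01. Adam8, a membrane metalloprotease of that list, was lower, with 30.5 and 46.6 CPM in hair germ and 71.4 and 100 CPM in IFE (-1.16 ± 0.30, adjusted p = 0.395).

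Of 37 epidermal transcription factors tested, 7 were higher and 4 lower without overlap (14.2% and 19.2% of all genes), with a median of 0.09. At p under 0.05, 3 were higher and 0 lower (2.84% and 5.63% of all genes). Mycn and Sox13 were among those higher in hair germ without overlap. Mycn had 55.2 and 28.0 CPM in hair germ and 9.06 and 13.8 CPM in IFE (1.82 ± 0.46, adjusted p = 0.395). Sox13 had 10.9 and 5.78 CPM in hair germ and 2.44 and 0.934 CPM in IFE (2.47 ± 0.79, adjusted p = 0.491). Both rose in transgenic hair germ (2.06 and 2.28, adjusted p = 0.0243 and 0.0416). Of 11 other keratins tested, 7 were above 0 with a median of 1.13, between 0 and 1.45 under the other settings. The median ratio of these keratins was 0 in pup 3 and 0.69 in pup 5. Without overlap, 4 were higher and 1 lower (14.2% and 19.2% of all genes). At p under 0.05, 1 was higher and 2 lower (2.84% and 5.63% of all genes). The higher was Krt17, a keratin of appendages, which had 1606 and 1821 CPM in hair germ and 999 and 1355 CPM in IFE (0.54 ± 0.23, adjusted p = 0.579), and rose by 1.06 in transgenic hair germ (adjusted p = 0.0255). Krt16, a keratin of stressed epidermis, was lower within each pup, with 101 and 214 CPM in hair germ and 202 and 517 CPM in IFE (-1.19 ± 0.42, adjusted p = 0.516). Krt6a, its usual companion, had 0.0879 and 2.72 CPM in hair germ and 12.2 and 4.75 CPM in IFE (-2.35 ± 0.85, adjusted p = 0.535). Of 28 genes of mitosis, 23 were above 0 with a median of 0.25; Tpx2, a spindle protein, had 164 and 114 CPM in hair germ and 87.8 and 84.2 CPM in IFE (0.70 ± 0.24, adjusted p = 0.502).

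**Figure D4:**
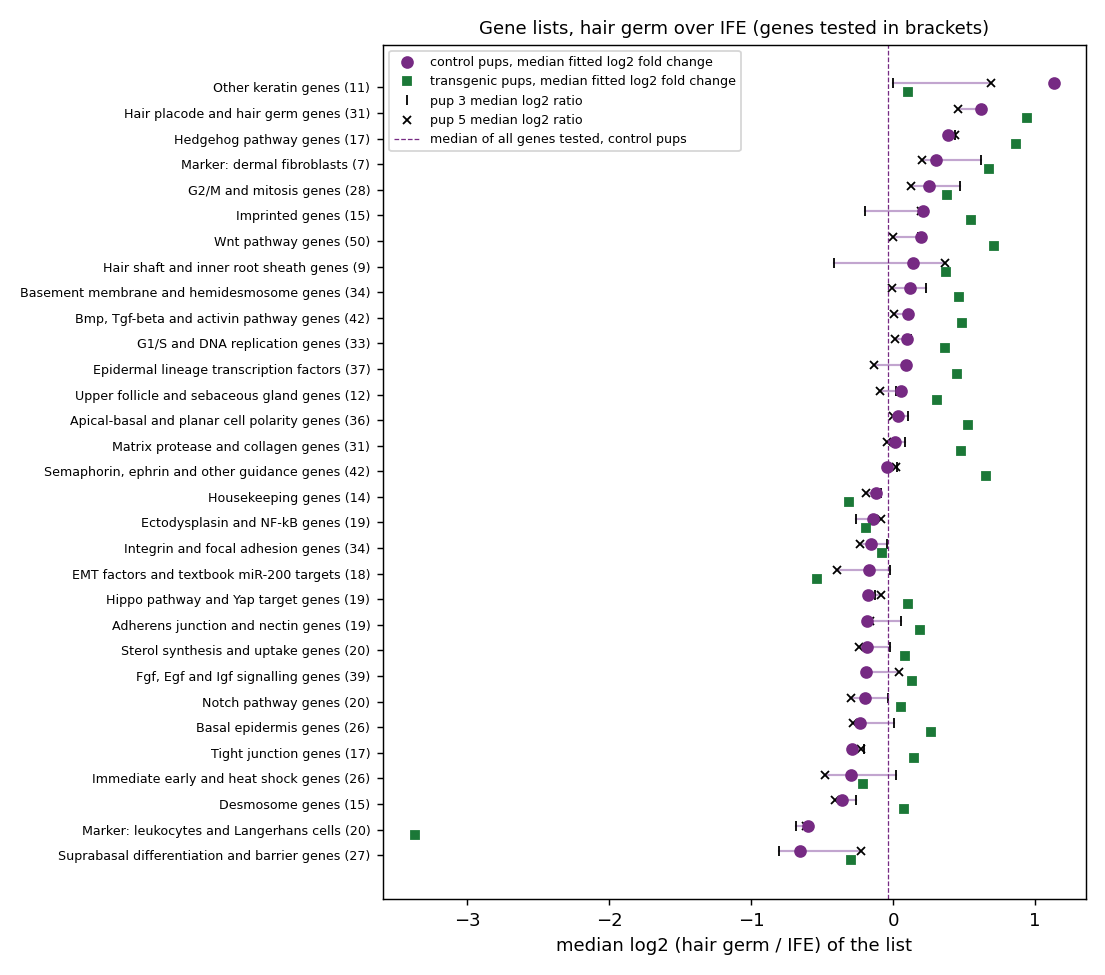
Median log2 hair germ over IFE for each gene list, with the number of genes tested in brackets: control pups (circles), transgenic pups (squares), and the median ratio in pup 3 (bars) and pup 5 (crosses); the dashed line is the median of all genes tested in controls. Placode and germ genes (0.62) and hedgehog genes (0.39) lie to the right in both pups, and suprabasal genes (-0.66) and desmosome genes (-0.36) to the left. Other keratins have the highest fitted median drawn (1.13), with a median ratio of 0 in pup 3 and 0.69 in pup 5.

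On the IFE side, differentiation and junction genes were the lists farthest below 0 among those of keratinocytes. Of 30 suprabasal and barrier genes listed, 27 were tested and 23 were below 0. At p under 0.05, 6 were lower and 0 higher (5.63% and 2.84% of all genes). Without overlap, 10 were lower, against 19.2% of all genes. Their median was -0.66, and it ran between -0.83 and -0.23 under the other settings, nearest 0 without both libraries of pup 3. None passed. Of 15 desmosome genes tested, 14 were below 0, 5 of them at p under 0.05 (5.63% of all genes). Their median was -0.36 and ran between -0.42 and -0.06, the second with libraries scaled by size alone. Dsg1a and Dsc1 are on both lists. Of 26 basal epidermis genes tested, 18 were also below 0, with a median of -0.24. Without overlap, 9 basal genes were lower and 2 higher (19.2% and 14.2% of all genes). At p under 0.05, 1 was lower and 0 higher (5.63% and 2.84% of all genes). The median ratio of the basal list was 0.003 in pup 3 and -0.28 in pup 5.

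Krt1, the keratin of the first suprabasal layers, had 1031 and 607 CPM in hair germ and 2509 and 1058 CPM in IFE (-1.12 ± 0.39, adjusted p = 0.510). Krt10, its partner, had 575 and 332 CPM in hair germ and 1802 and 529 CPM in IFE, which overlapped across pups (-1.36 ± 0.45, adjusted p = 0.501). Tgm1, the transglutaminase of the cornified envelope, had 2.90 and 7.77 CPM in hair germ and 11.8 and 22.3 CPM in IFE (-1.68 ± 0.56, adjusted p = 0.501). For all 3 the hair germ value was the lower within each pup.

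Dsg1a, a desmosomal cadherin of differentiating layers, had 163 and 85.7 CPM in hair germ and 364 and 172 CPM in IFE (-1.11 ± 0.37, adjusted p = 0.501). Its near-identical neighbour Dsg1b had 13.6 and 23.3 CPM in hair germ and 65.0 and 31.1 CPM in IFE (-1.35 ± 0.45, adjusted p = 0.501), and reads of such copies may be split uncertainly. Dsc3, a basal desmocollin, had 1568 and 1503 CPM in hair germ and 2604 and 2104 CPM in IFE (-0.62 ± 0.22, adjusted p = 0.522). In transgenic pups Dsc3 was 1620 and 1515 CPM in hair germ and 1592 and 1382 CPM in IFE (0.08, adjusted p = 0.904), and the desmosome list had a median of 0.08 with 0 genes called; the test of the difference for Dsc3 gave an adjusted p of 0.596.

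Of 17 tight junction genes, 12 were below 0 with a median of -0.29. At p under 0.05, 3 were lower and 1 higher (5.63% and 2.84% of all genes), the higher one being Cgnl1. Cldn1, a claudin required for the skin barrier, had 126 and 186 CPM in hair germ and 250 and 331 CPM in IFE (-0.90 ± 0.24, adjusted p = 0.406). Ocln, occludin, had 28.2 and 39.2 CPM in hair germ and 53.1 and 89.8 CPM in IFE (-1.09 ± 0.32, adjusted p = 0.461). Aqp3, the glycerol and water channel of epidermis, belongs to another list, that of upper follicle and sebaceous gland genes. It had 190 and 124 CPM in hair germ and 355 and 233 CPM in IFE (-0.90 ± 0.27, adjusted p = 0.485). Of 12 genes tested on that list, 6 were above 0 and 6 below. At p under 0.05, 1 of them was higher and 1, Aqp3, lower (2.84% and 5.63% of all genes). Cldn1, Ocln and Aqp3 were each lower in both hair germ libraries than in either IFE library. The tight junction median turned to 0.13 without IFE of pup 5 and to 0.02 without hair germ of pup 3.

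By p alone the gene lowest in hair germ was Arhgap31, a GTPase activating protein (chr16:38598343-38713035), with 1.76 and 1.40 CPM in hair germ and 10.6 and 10.9 CPM in IFE (-2.78 ± 0.41, adjusted p = 0.0799). It fell in transgenic hair germ, with 26.3 and 20.1 CPM there and 116 and 92.3 CPM in IFE (-2.16, adjusted p = 0.00237). Lypd3, a glycolipid-anchored protein of suprabasal keratinocytes (chr7:24636570-24641118), had 48.6 and 36.7 CPM in hair germ and 100 and 103 CPM in IFE (-1.25 ± 0.23, adjusted p = 0.213). Lypd3 was at -0.24 in transgenic pups without passing (adjusted p = 0.636).

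Of the 5 genes given for lower values in hair germ, 3 had no count in either control hair germ library, and of these Sfpi1 and Itgb2 are leukocyte genes. Sfpi1, the myeloid transcription factor PU.1, had 76 counts in IFE (2.96 and 5.01 CPM) and was at least 38.2-fold lower in hair germ, taking 3 counts over the 2 libraries as the floor. Itgb2, the leukocyte integrin beta 2 chain (chr10:77530329-77565708), had 78 counts in IFE (6.09 and 3.65 CPM) and was at least 39.2-fold lower. Gatm, an enzyme of creatine synthesis (chr2:122594473-122611277), had 59 counts in IFE (5.92 and 2.12 CPM) and was at least 29.7-fold lower. Their adjusted p-values were 0.119, 0.119 and 0.257, and all 3 fell in transgenic hair germ.

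Of 23 leukocyte markers listed, 20 were tested, 15 were below 0, 4 were lower at p under 0.05 and 0 higher (5.63% and 2.84% of all genes), and the median was -0.60, which turned to 0.52 without IFE of pup 3. Their summed level was 248 and 92.9 CPM in hair germ and 352 and 147 CPM in IFE, so pup 3 exceeded pup 5 in both populations. The markers did not all lie on 1 side, and 5 of the 20 were above 0. Cd207, the listed marker of Langerhans cells, had 23 counts in hair germ and 0 in IFE. Laptm5, a lysosomal protein of blood cells, had 5.54 and 3.92 CPM in hair germ and 28.2 and 10.4 CPM in IFE (-1.98 ± 0.44, adjusted p = 0.341). Ptprc, the pan-leukocyte antigen CD45, had 10.7 and 11.8 CPM in hair germ and 19.9 and 19.7 CPM in IFE (-0.81 ± 0.24, adjusted p = 0.479). Lyz2, a myeloid lysozyme, had 0 and 2.72 CPM in hair germ and 4.88 and 5.01 CPM in IFE. In bulk samples fewer cells of a type and less RNA per cell cannot be told apart, and the part of these cells in the genes lower in hair germ was not tested.

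Markers of some other cells had higher sums in hair germ, at low levels. The 11 Merkel cell markers summed to 39.0 and 27.3 CPM in hair germ and 12.9 and 9.0 CPM in IFE, with 10 of 10 tested above 0; Atoh1, their defining factor and at p under 0.05, had 4.04 and 0.532 CPM in hair germ and no count in IFE. The other gene with a p under 0.05 was Piezo2, a mechanosensitive channel, with 18.4 and 15.8 CPM in hair germ and 9.93 and 5.26 CPM in IFE. Pigment cells gave a smaller gap. Melanocyte markers summed to 36.6 and 32.8 CPM in hair germ and 24.4 and 21.5 CPM in IFE, with Sox10 and Mlana at 0; Dct, a pigment enzyme, had 11.2 and 3.52 CPM in hair germ and 0.697 and 1.36 CPM in IFE. Dermal papilla markers summed to 33.7 and 31.2 CPM in hair germ and 18.8 and 9.08 CPM in IFE, of which Prom1 gave 28.8 and 18.9 CPM in hair germ and 8.18 and 3.23 CPM in IFE, with Corin, Rspo3 and Crabp1 at 0.

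Fibroblast markers summed to 1417 and 1219 CPM in hair germ and 1405 and 1479 CPM in IFE, and of their defining genes Lum and Twist2 were at 0 in all 4 libraries. Col1a2, a collagen I chain, had 29.1 and 43.4 CPM in hair germ and 11.5 and 15.5 CPM in IFE (1.40 ± 0.43, adjusted p = 0.485), and was the marker with the smallest p on that list. Endothelial markers summed to 15.3 and 8.57 CPM in hair germ and 11.5 and 16.4 CPM in IFE, with Cdh5 and Cldn5 at 0. Nerve and muscle markers summed to 8.96 and 6.45 CPM in hair germ and 6.97 and 5.77 CPM in IFE, and the 7 erythroid markers in the files were at 0. The part of Merkel cells, melanocytes and mesenchyme in the genes higher in hair germ was not tested.

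Immediate early and heat shock genes, which respond to tissue handling, were mostly below 0 in hair germ: 21 of 26, with a median of -0.30. At p under 0.05, 4 were lower and 1 higher (5.63% and 2.84% of all genes). The median ratio was 0.02 in pup 3 and -0.48 in pup 5, so the shift of the list was that of pup 5. Nr4a1 had 142 and 142 CPM in hair germ and 187 and 329 CPM in IFE (-0.86 ± 0.25, adjusted p = 0.461). Zfp36 had 147 and 180 CPM in hair germ and 212 and 380 CPM in IFE (-0.86 ± 0.27, adjusted p = 0.491). Klf6 had 422 and 780 CPM in hair germ and 742 and 1534 CPM in IFE, where the highest library for all 3 genes was IFE of pup 5. Whether handling bears on the genes higher in IFE was not tested.

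The 2 control pups agreed on direction for 7709 of 14176 genes (54.4%), and the within-pup log2 ratios of pups 3 and 5 correlated across genes at 0.08, or at 0.26 over the 7675 genes with a log2 CPM of at least 4. Against all genes tested, of which 22.7% were above 0 in both pups and 30.8% below in both, placode, germ and hedgehog genes were above 0 in both for 33 of 47 (70.2%). Suprabasal and desmosome genes were below 0 in both for 26 of 40 (65%).

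The same contrast in transgenic pups 4 and 6 uses no control library in its means, and 124 genes rose (0.875%) and 531 fell (3.75%) in their hair germ. Of the 402 genes higher in control hair germ at p under 0.05, 320 had the same sign in transgenic pups (79.6%), and 52 rose there (12.9%). Of the 798 lower genes, 584 had the same sign (73.2%) and 116 fell (14.5%). Over all genes tested, 8582 had the same sign (60.5%). Read from the other side, 112 of the 124 genes that rose in transgenic hair germ were above 0 in controls (90.3%), and 391 of the 531 that fell were below 0 (73.6%). In the opposite direction, 8 of the 402 fell and 2 of the 798 rose in transgenic hair germ.

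**Figure D5:**
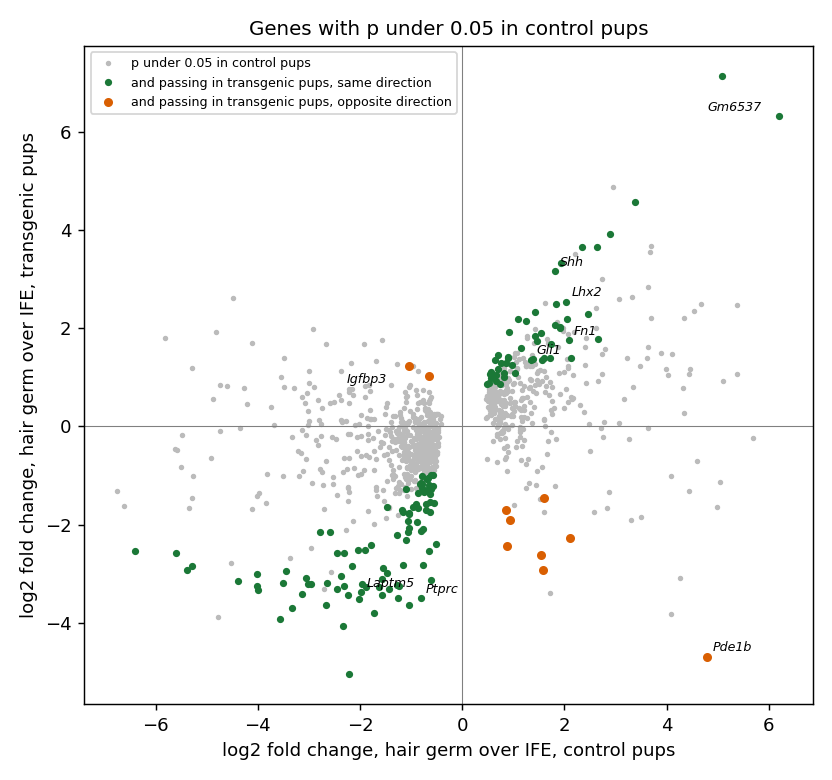
Fitted log2 hair germ over IFE in transgenic pups (vertical) against control pups (horizontal) for the genes with p under 0.05 in controls and a count in every population; 145 genes passed in transgenic pups in the same direction (green) and 10 in the opposite one (orange). Shh, Lhx2, Fn1 and Gli1 lie in the upper right and Igfbp3 in the upper left.

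Tested directly, the difference between hair germ and IFE itself differed between control and transgenic pups for 19 genes, each with a higher fold change in controls, and for 0 genes the other way. Vim, the mesenchymal filament protein vimentin, had 146 and 132 CPM in control hair germ and 231 and 196 CPM in control IFE (-0.62 ± 0.22). In transgenic pups it had 729 and 638 CPM in hair germ and 6306 and 5601 CPM in IFE (-3.12), and the difference was 2.51 (adjusted p = 0.0284). For Ptprc, set out above in controls, transgenic pups had 29.0 and 30.5 CPM in hair germ and 378 and 296 CPM in IFE, and the difference was 2.69 (adjusted p = 0.0284). The leukocyte markers as a list had a median of -3.37 in transgenic pups, where 17 of 20 fell in hair germ (3.75% of all genes).

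Tgfbr1, the type I Tgf-beta receptor, had 67.6 and 69.0 CPM in control hair germ and 96.3 and 99.0 CPM in control IFE, against 91.6 and 91.4 CPM in transgenic hair germ and 495 and 465 CPM in transgenic IFE. Its difference was 1.87 (adjusted p = 0.0437). Tgfbr1 and the next 3 genes were named after their values were seen: St6gal1, a sialyltransferase, Elmo1, an engulfment adaptor, and Akna, an AT-hook protein, lay on opposite sides of 0 in the 2 genotypes. St6gal1 had 14.6 and 14.2 CPM in control hair germ and 4.88 and 4.67 CPM in control IFE, against 23.9 and 22.4 CPM in transgenic hair germ and 71.9 and 56.3 CPM in transgenic IFE (difference 3.05, adjusted p = 0.0479). The differences were 2.57 for Elmo1 (adjusted p = 0.0479) and 3.33 for Akna (adjusted p = 0.0437). No placode, hedgehog, suprabasal or desmosome gene was among the 19. With so few of the 14176 genes passing, that absence does not show that these lists were alike in the 2 genotypes.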

How the data were processed

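The 8 libraries of total RNA, Trizol-extracted and made with a SMARTer stranded low-input kit, are described per the labels' protocols. Raw read counts, as the authors deposited them, cover 23433 gene symbols in each library. The authors used TopHat, HTSeq and DESeq2 on mm10 (GRCm38), per the submitters' processing notes. No version or strand setting is stated in those sources, so overlapping antisense genes cannot be told apart. The 5 summary lines were dropped: reads in no feature were 31.6% to 47.8% of a control library and non-unique alignments 12.5% to 41.8%.

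Counts were fitted in edgeR 4.0.16 (R 4.3.3): filterByExpr, TMM scaling, 4 group means over 8 libraries, and the quasi-likelihood test with Benjamini-Hochberg adjustment at 0.05. Unadjusted p under 0.05 and the absence of overlap between populations are descriptions. Fits were tested on simulated data. DESeq2 1.42.0, limma 3.58.1, other scalings and left-out libraries were alternatives. Same-numbered libraries come from the same animal, per the labels, so the numbers pair the samples. In controls their deviations from the group means correlated at 0.155 across all genes tested. The correlation was 0.373 over the 7675 genes with a log2 CPM of at least 4. The main fit did not use this pairing. The fit with pup as a block is given where it changed a call.

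The genes named were to be the 15 largest rises and falls among passing genes without overlap whose mean log2 CPM reached 2, filled to 5 a direction by smallest p where fewer passed, plus up to 3 genes per list by smallest p, the genes of the sort and list members that answer a role. Gm6537 and the genes passing with the block alone (Has3, Tspan18, Thbs1 and Mir5109) fall outside that rule and were named after their values were seen. The members, named genes and the lists were chosen with earlier results of these data known. Intervals and floors cover counting error only. Promoters are from RefSeq (GRCm38.p6). Gene coordinates are RefSeq gene spans; reads were counted per gene, not per exon or intron. A second deposited matrix of normalised values was not used. In the hedgehog list, 1 gene counted there is not reported here by name.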

Additional observations from a re-analysis of the deposited data

Results flagged for a closer look

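The difference between hair germ and IFE was not the same in control and transgenic pups for 19 genes, by the test of the difference itself (edgeR, control minus transgenic, adjusted p under 0.05). Among the genes named above, the difference of log2 fold changes was 2.69 for Ptprc, 2.51 for Vim, 1.87 for Tgfbr1, 3.33 for Akna, 3.05 for St6gal1 and 2.57 for Elmo1. Groups of 2 libraries are too small to look for a single outlying sample.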

How the results depend on the processing

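The number of genes passing in control pups, 1 in the analysis above, was 2 with RLE scaling, 29 with library size alone, 0 with the Rn45s row left out, 3 with no filter on low counts, 149 by DESeq2, 0 by limma-voom, 6 with edgeR's legacy method and 7 with the replicate block. It was 0 without both libraries of pup 3 and 20 without both of pup 5, and between 0 and 123 with 1 library left out. In transgenic pups, where 655 passed, the count was 336 with the legacy method, 1018 with the block, 1385 from their own 4 libraries alone, 1341 without control pup 3, 1376 without control pup 5, and between 47 and 1026 with 1 library left out. The 19 genes whose difference itself differed became 97 with library size alone, 1 with the Rn45s row left out, 45 with no filter, 177 by DESeq2, 1 by limma-voom, 2 with the legacy method, 86 with the block, 41 without control pup 3, 92 without control pup 5, and between 0 and 192 with 1 library left out. Leaving out the 2 libraries richest in Rn45s, chosen after seeing the data, gave 0, 192 and 0. The causes were not tested.

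Among the genes named, the fitted value reversed somewhere for Smo (-0.074 without IFE of pup 5 to 0.22 without IFE of pup 3, with 1 library left out) and for Mir5109 (-13.40 without hair germ of pup 3 to 2.94 without IFE of pup 3, and 2.88 without the Rn45s-rich libraries). A p that missed the threshold does not show equal levels. The block changed no call of a named gene in controls other than those given.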
